A study of Mus musculus with 2 samples.

Results

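The genes described here are mouse genes named Zfp and a number, for zinc finger protein. Members are the protein-coding Zfp genes of the annotation with 10 or more long reads summed over both libraries, which gave 198 of the 365 annotated Zfp genes and 198 of the 10675 protein-coding genes at that depth. The members were thus chosen by their read counts, and their levels are a description with no test. The 2 libraries are from long-read sequencing of cortical RNA, the tissue being the left side of the cerebral cortex, from 18 to 20 month old B6CASTF1/J mice, a hybrid of C57BL/6J and CAST/EiJ. Each was made from 2 ug of total RNA, and no treatment is named. The labels call them biological replicates 1 and 2 of the same donor entry, so the spread between them may be partly technical. The sex field reads female, while a male is named in the descriptive text of the same samples. Xist had 34 and 29 reads in replicates 1 and 2, and Ddx3y, Uty, Kdm5d and Eif2s3y had 0 in both. With 1 group there was no condition to compare. The questions asked here were how many reads each Zfp gene had, in which transcript forms they fell, and how far the libraries differed.

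Most Zfp proteins carry tandem C2H2 fingers, in which a pair of cysteines and a pair of histidines hold a zinc ion and the residues between them read DNA bases. Many also start with a KRAB domain, which recruits the corepressor Trim28 and, through it, the histone methyltransferase Setdb1 and HP1 proteins to silence chromatin, above all at retroelements. KRAB zinc finger genes lie in clusters that grew by duplication. In a typical member a separate short exon encodes the KRAB A-box and 1 long final exon encodes the whole finger array, so a splicing choice can remove one part and leave the other. Other Zfp genes share only the name and the finger, and act in RNA binding, ribosome maturation, ubiquitin ligation or general promoter binding.

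The coding stretches that define the family are shown first, because the transcript forms below are sorted by whether they hold them. They were read from the GENCODE M21 coding sequences on mm10, 5′ to 3′ on the coding strand. In the KRAB A-box of 4 members, capitals mark the codons of the residues fixed by the search pattern.
Zfp68, residues 12 to 35: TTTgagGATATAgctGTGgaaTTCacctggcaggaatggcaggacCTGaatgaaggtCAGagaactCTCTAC
Zfp777, residues 330 to 353: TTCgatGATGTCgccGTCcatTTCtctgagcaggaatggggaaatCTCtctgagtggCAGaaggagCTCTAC
Zfp868, residues 18 to 41: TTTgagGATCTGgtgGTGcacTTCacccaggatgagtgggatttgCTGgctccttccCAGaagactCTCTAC
Zfp938, residues 6 to 29: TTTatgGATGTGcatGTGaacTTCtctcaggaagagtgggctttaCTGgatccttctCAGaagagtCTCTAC

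In the finger stretches, capitals mark the cysteine and histidine codons, and the bases after the last histidine encode the linker to the next finger. Zfp706 has a single finger and no such linker, so its stretch ends at the last histidine.
Zfp68, residues 319 to 344: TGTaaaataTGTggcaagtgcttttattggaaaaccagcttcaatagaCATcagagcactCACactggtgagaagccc
Zfp777, residues 692 to 717: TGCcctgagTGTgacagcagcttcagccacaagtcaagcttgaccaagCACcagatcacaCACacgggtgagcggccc
Zfp771, residues 65 to 90: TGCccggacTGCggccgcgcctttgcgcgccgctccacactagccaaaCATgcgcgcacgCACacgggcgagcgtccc
Zfp422, residues 85 to 110: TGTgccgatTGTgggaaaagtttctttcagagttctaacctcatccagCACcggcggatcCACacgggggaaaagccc
Zfp706, residues 41 to 62: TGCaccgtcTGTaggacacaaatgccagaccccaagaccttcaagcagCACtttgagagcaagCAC

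By sequence patterns, 84 of the 198 members (42.4%) matched the KRAB A-box and 6 a SCAN domain, a dimerization domain. A looser KRAB pattern matched 87. KRAB members below are those that matched the stricter pattern. Members without KRAB are those that did not, and some of them may still encode a KRAB domain. The members hold 1999 C2H2 patterns in all, with a median of 10 per protein, 11 in KRAB members and 8 in the others. The most were 36 in Zfp142, 30 in Zfp236, and 27 each in Zfp423, Zfp521 and Zfp646. Zfp365, Zfp330, Zfp703 and Zfp839 had no match to the pattern. Among the 167 annotated Zfp genes under 10 reads, 110 (65.9%) encode the KRAB pattern. KRAB members also had fewer reads, with a median of 20 and at most 81 (Zfp68), against a median of 36 and at most 955 in members without it.

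The libraries held 871524 and 839150 reads, of which 774629 and 679147 fell on annotated mouse genes. CPM below, the usual scaling of counts to library size, is relative to the latter, and 0 reads allows up to 3.87 and 4.42 CPM, for counting error only. Cortical markers were present: Slc17a7 (excitatory neurons) had 885 and 661 reads in replicates 1 and 2, Gad1 (inhibitory neurons) 343 and 263, Aldoc (astrocytes) 1836 and 1704, and Mbp (oligodendrocytes) 1154 and 862. C1qa of microglia had 80 and 67 reads and Cldn5 of endothelium 205 and 117. Ttr of choroid plexus had 18 and 5 reads and Hba-a1 of red cells 193 and 76. All 8 markers had fewer reads in replicate 2, the smaller library. The falls were unequal, from 1836 to 1704 in Aldoc and from 18 to 5 in Ttr, beside totals of 774629 and 679147. The markers' part in any Zfp value was not tested. In bulk tissue, fewer cells of a type and less RNA per cell cannot be told apart. The mean chi-square per gene between the libraries was 1.79 over 11277 genes with 10 or more reads and 1.23 over the 198 Zfp genes. Counting alone gives a value of 1. An excess over 1 can depend on the reads per gene, and no set of like depth was compared.

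Zfp genes had few reads each. The members held 4511 reads in replicate 1 and 4193 in replicate 2, which were 0.582% and 0.617% of the reads on annotated genes. Their median was 26 reads per gene against 56 in the 10477 other protein-coding genes with 10 or more. Only 43 members reached 50 reads and 9 reached 100. The leading pair, Zfp365 and Zfp706, held 1734 reads, 19.9% of the total. Of the Zfp genes outside, 130 had 1 to 9 reads and 37 had none. Just inside the threshold, with 10 reads each, were Zfp112, Zfp28, Zfp521, Zfp560, Zfp563, Zfp712, Zfp760, Zfp84 and Zfp995. Zfp109, Zfp128, Zfp248, Zfp407, Zfp454, Zfp462, Zfp781, Zfp800 and Zfp945 lay just outside with 9. The split between replicates 1 and 2 at this depth ranged from 9 and 0 (Zfp454) to 5 and 5 (Zfp560). Reads were counted per model and not divided by length. Whether several reads could stem from 1 molecule is not stated, so the intervals and tests below treat reads as independent and cover counting error only.

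**Figure D1:**
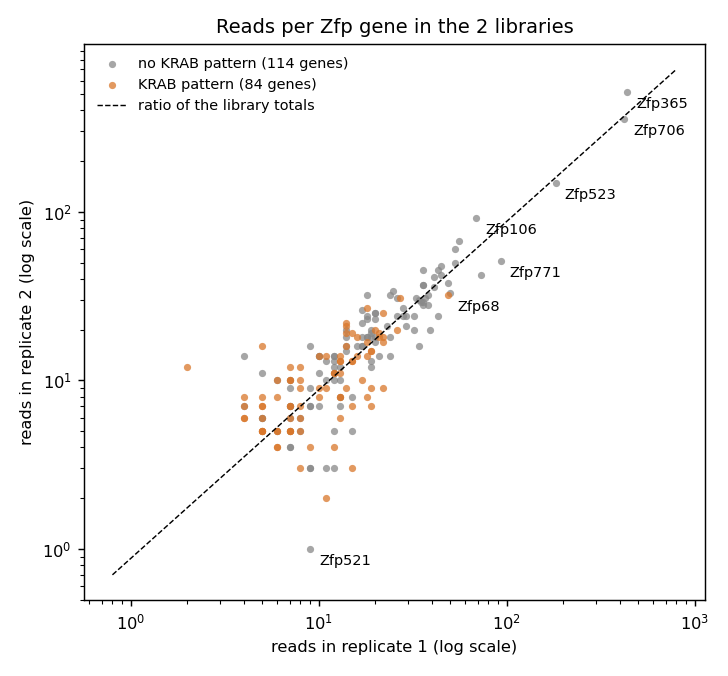
Reads of each of the 198 Zfp genes in replicate 1 (x axis, log scale) and replicate 2 (y axis, log scale), coloured by whether the protein has the KRAB pattern; the dashed line is the ratio of the library totals. Zfp365 and Zfp706 sit apart at 356 to 516 reads, and every KRAB member lies at or below 81 reads in total.

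Zfp365, a centrosome and DISC1-binding protein of neurons and oligodendrocytes, had the most reads of any member. It had 439 reads in replicate 1 and 516 in replicate 2, or 567 and 760 CPM, a mean of 663 ± 137 CPM (SD, n = 2). The log2 difference of replicate 2 from replicate 1 was 0.42, with a counting SE of 0.09 and a Benjamini-Hochberg adjusted p of 0.00102 in an exact binomial test on the reads. This was 1 call among 130 Zfp genes tested at 20 or more reads. Over all 9143 genes tested, 182 (1.99%) were called, 1.26% higher and 0.733% lower in replicate 2. By DESeq2 size factors the split of the calls was closer to even, 52.2% higher against 63.2% here. The test compares 2 libraries, so the spread between animals is not in it.

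The other Zfp genes did not pass that test. At an unadjusted exact binomial p under 0.05 there were 8 of 130 (6.15%), against 11.8% of all genes. This share depends on the reads per gene, and no set of like depth was compared. The median log2 difference was 0.08 over the tested Zfp genes and 0.03 over all genes, and 76 of 130 were higher in replicate 2. Zfp771 had 93 reads in replicate 1 and 51 in replicate 2 (log2 difference -0.67, adjusted p 0.167 by the exact binomial test). Zfp106 had 69 and 92 reads (0.60, adjusted p 0.188 by the same exact test). Zfp384, a promoter-binding factor also called CIZ, had 18 and 32 (0.99, adjusted p 0.251 by the same exact test). None of these passed the correction, although each had an unadjusted p under 0.05.

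Among the members listed for RNA binding, ribosomes and ubiquitin, Zfp706 encodes a short single-finger protein and had 423 and 356 reads, or 546 and 524 CPM. Zfp622, a factor of late ribosome maturation, had 73 and 42. Zfp207, which loads Bub3 onto kinetochores, had 45 and 48, and Zfp330, a nucleolar protein, had 45 and 42. Zfp598, the ubiquitin ligase that marks collided ribosomes, had 36 and 37, and Zfp638, an RNA-binding nuclear protein, had 24 and 32. Zfp106, an RNA-binding protein needed by motor neurons, stood among the first 4 by reads. Of the 14 genes listed for RNA binding, ribosomes and ubiquitin, 11 had 10 or more reads, against 54.2% of all annotated Zfp genes. Of the 11, 10 were tested and none was called. Over all genes tested 1.99% were called, which applies to the lists below too. These lists were chosen with earlier results of the data known. The median log2 difference over the 11 was 0.22, and the medians for the lists below are likewise over all genes with 10 or more reads. The mRNA decay factor Zfp36 had 0 and 2 reads.

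Of 15 neural genes listed, 9 were members, against 198 of 365 (54.2%) in the family as a whole; 6 were tested and 1, Zfp365, was called (median 0.18 over the 9). Zfp24, a factor of oligodendrocyte maturation and myelination, had 41 and 41 reads. Zfp423 and Zfp521, paired paralogs of neural progenitors, had 18 and 24 reads and 9 and 1. Zfp703, a corepressor of the NET family, and Zfp536, a repressor of neuronal differentiation, were also members, while Zfp462, Zfp292, Zfp407, Zfp503, Zfp609 and Zfp488 stayed under 10 reads.

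Of the 15 listed general promoter and chromatin factors that the annotation holds, 14 were members, against 54.2% of all annotated Zfp genes. Of the 14, 13 were tested and none was called (median -0.06 over the 14). Zfp410, known as the activator of Chd4, had 38 and 28, and the GC-box factors Zfp148 and Zfp281 had 36 and 28, and 34 and 30. Zfp131, a BTB-domain factor, had 36 and 29 and Zfp653 had 39 and 20. Zfp217 had no reads, and Zfp161 is not a gene name in GENCODE M21.

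Several of the 15 members with the most reads stand in no role list. Zfp523, the mouse counterpart of ZNF76 and a relative of the promoter factor Zfp143, had 182 and 149 reads, and Zfp771 is given above. Zfp651 had 56 and 67 reads, Zfp692 53 and 60, and Zfp512 53 and 50. Zfp422 had 43 and 45, Zfp637 49 and 38, and Zfp414 50 and 33. Outside the 15, Zfp746 had 37 and 31. It was led by pooled unannotated single-exon models, 12 reads at 2357 nt in replicate 1 and 5 at 171 nt in replicate 2.

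Of 10 genes listed for imprints and retroelements, 4 were members, against 54.2% of all annotated Zfp genes. The median log2 difference was 0.24 over the 4, and the 2 that were tested were not called. Zfp445, which protects imprints together with Zfp57, had 18 and 27 reads, and Zfp57 itself had 2 and 4. Zfp932, a repressor of endogenous retroviruses, had 14 and 21, and Zfp809, which silences proviruses at their tRNA primer site, had 7 and 5. Zfp42 (Rex1) and Zfp819 had none. Of 26 genes listed for the KRAB corepressor machinery, 25 had 10 or more reads. Among the 18534 annotated genes with 1 or more reads, 11277 had 10 or more. Of the 25, 24 were tested and none was called (median 0.15 over the 25). Trim28, the scaffold that binds KRAB, had 185 and 145 reads. Sumo2, a modifier that is attached to Trim28, had 229 and 188. Cbx3 and Cbx5, both HP1 proteins, had 101 and 110 reads, and 81 and 65. Hdac2 and Chd3 of the NuRD complex had 100 and 71, and 83 and 87, while Uhrf1 had none. Over all genes with 10 or more reads the median log2 difference was 0.03.

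Each read was assigned by the authors to a transcript model of 1 of 5 kinds. A model can be an annotated transcript, an incomplete splice match whose junctions are a run of an annotated chain, a new combination of annotated splice sites, a model with at least 1 unannotated splice site, or a genomic model, which fits none of these. In Zfp genes 61.3% and 59.6% of reads fell on annotated transcripts in replicates 1 and 2, against 71.5% and 68.6% in other protein-coding genes. Incomplete splice matches took 10.2% and 11.9%, new combinations 10.1% and 10.2%, unannotated sites 7.34% and 7.15%, and genomic models 11.0% and 11.2%. Leaving out Zfp365 and Zfp706 lowered the pooled annotated share to 52.9%. The gap was smaller within a common read range: among genes with 10 to 99 reads the annotated shares were 55.2% and 53.8% in Zfp genes and 58.3% and 54.0% in the others. In that range the unannotated-site share was 9.32% and 9.72% in Zfp genes against 6.29% and 6.60%, and the incomplete splice matches 10.5% and 11.2% against 15.1% and 16.1%.

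By gene, 112 of 198 members had most of their reads on annotated transcripts. Zfp830, Zfp579, Zfp189 and Zfp712 had all of theirs there, and 8 had none: Zfp423, Zfp983, Zfp827, Zfp687, Zfp275, Zfp536, Zfp652 and Zfp760. The most frequent model was unannotated in 67 members (33.8%), and in 36 of these it was a single exon. With the same pooling, the share of genes led by an unannotated form was 25.4% in other protein-coding genes and 30.8% in those with 10 to 99 reads. At 50 reads or more, the annotated share was highest in Zfp706 (96.7%), Zfp622 (93.0%), Zfp580 (91.2% and 87.5% in the libraries), Zfp637 (89.7%) and Zfp68 (87.7%). It was lowest in Zfp638 (7.14%), Zfp106 (8.70%), Zfp692 (8.85%) and Zfp664 (21.1%), followed by Zfp384. A high annotated share did not always go with the coding sequence. Models with at least 90% of the reference coding sequence held 8% of the reads of Zfp580 and 54.0% of those of Zfp637. In Zfp706, Zfp622 and Zfp68 they held 98.2%, 94.8% and 88.9%.

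**Figure D2:**
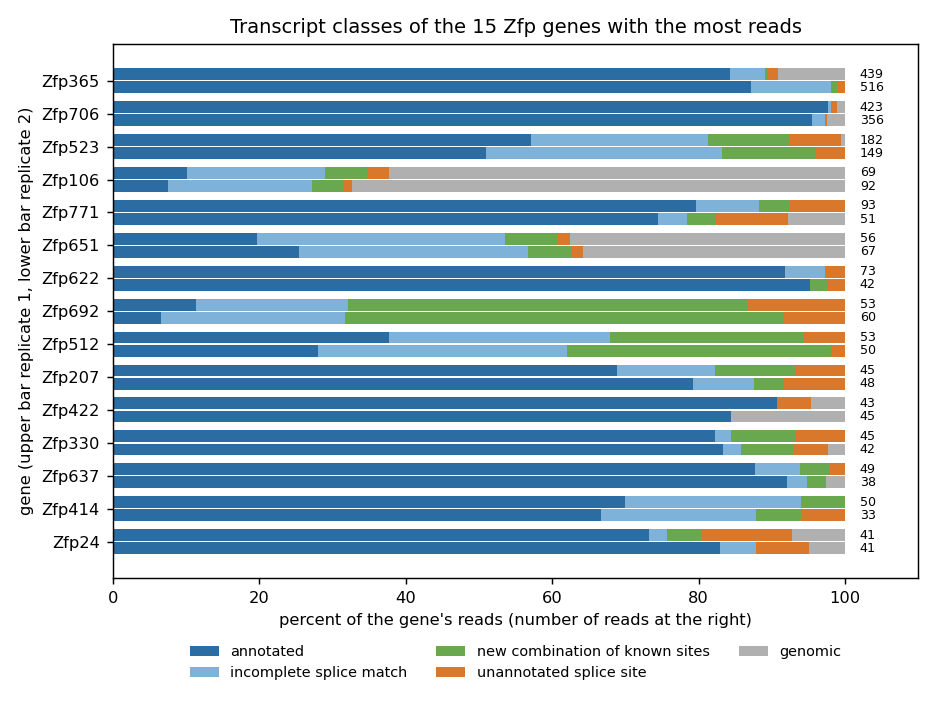
Share of reads (x axis, percent) by transcript class for the 15 Zfp genes with the most reads; the upper bar of each pair is replicate 1, the lower replicate 2, and the number at the right is the reads. Zfp706 and Zfp622 are nearly all annotated, while Zfp106 and Zfp692 show under 12% annotated in both libraries.

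The leading annotated forms recurred in both libraries. Zfp365-201, with 5 exons and 4259 nt at chr10:67886103-67912662 on the minus strand, took 370 of 439 reads in replicate 1 (84.3%, 95% Wilson interval 80.6 to 87.4) and 450 of 516 in replicate 2 (87.2%, 84.1 to 89.8). Its single-exon models at the 3′ end differed between the libraries. Replicate 1 had 40 reads on a genomic model of 1764 nt with no coding base. Replicate 2 had 32 on an incomplete splice match of 2989 nt that reaches into the coding sequence. Single-exon reads of this 3′ end thus fell on models of different class and length in the deposited tables. Zfp706-201 had 411 and 340 reads. A 14-exon annotated transcript of Zfp523 had 101 and 71 reads, and a 5-exon form that holds only its 3′ end had 35 and 38, 19.2% and 25.5% of the gene. That short form, at chr17:28202115-28205886, spans 45.4% of the coding sequence and 29.0% of the finger-coding bases.

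In Zfp106 the leading model was a single exon of 675 nt at chr2:120506820-120507494 on the minus strand. It had 43 reads in replicate 1 and 60 in replicate 2, which were 62.3% (50.5 to 72.8) and 65.2% (55.1 to 74.2) of the gene. It lies wholly in the annotated last exon, ends at the annotated 3′ end and holds no coding base. The full Zfp106-201 transcript, with 22 exons and 9085 nt, had 7 and 7 reads. A single-exon model of Zfp664, 3476 nt at chr5:124885155-124888630, had 20 and 24 reads (76.9% and 77.4%) and held the whole coding sequence, since that gene codes within 1 exon. Zfp664-201 had 5 and 7. These single-exon forms therefore differ in what they can encode: none of the protein in Zfp106 and all of it in Zfp664.

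Zfp423 had no annotated read. Its leading form was a 5-exon incomplete splice match with 12 of 18 and 18 of 24 reads that spans 62.9% of its finger-coding bases. In Zfp651, single-exon models had 21 reads in replicate 1 and 23 in replicate 2, as separate models of 3572 and 7788 nt. They lay 71.9% and 57.1% in annotated exons and ended 2688 and 2311 nt before the annotated 3′ end. Zfp651-201 had 10 and 16 reads. Zfp692 spread over 55 models, 6 of them with 5 or more reads, and its leading model, a new combination with 11 exons, had 3 and 7. Zfp131 was led by an 8-exon model with 7 and 8 reads whose first donor, at chr13:119791211, is not annotated. Zfp512-201 had 18 and 13 reads, beside a 13-exon new combination with 9 and 12. Zfp422 was shared by 2 annotated transcripts, with 21 and 23 reads on the first and 18 and 15 on Zfp422-201.

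No share of a Zfp gene differed between the libraries past the test. The major transcript was the most frequent form, with a gene's unannotated single-exon models pooled as 1. Of 48 Zfp genes with 20 or more reads in each library, none was called for its share by Fisher's exact test. None had an unadjusted p under 0.05 in that test. Over all 6116 genes tested, 0.164% were called. For the annotated share none of 48 was called against 0.147% of all genes, and 1 had an unadjusted p under 0.05: Zfp68, with 93.9% and 78.1% annotated (p 0.0447, adjusted p 0.827, Fisher's exact test). A difference of that size was not detectable after correction at this depth. For the single-exon share none of 48 was called against 0.278% of all genes, and none had an unadjusted p under 0.05. Zfp365 passed for that share without genomic models, and Zfp365 and Zfp281 passed for the annotated share when incomplete splice matches counted as annotated.

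Zfp genes keep most of their coding sequence in 1 exon. A median of 85.2% of the coding sequence lay in a single exon, against 24.7% in other protein-coding genes, and 123 members (62.1%) had at least 75% there, against 9.50%. The median last exon was 2223 nt in members and 1212 nt in the others, with 5 and 9 exons per gene. All fingers lay in 1 exon in 84 of 84 KRAB members and in 59 of 103 members without KRAB that had 2 or more fingers.

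**Figure D3:**
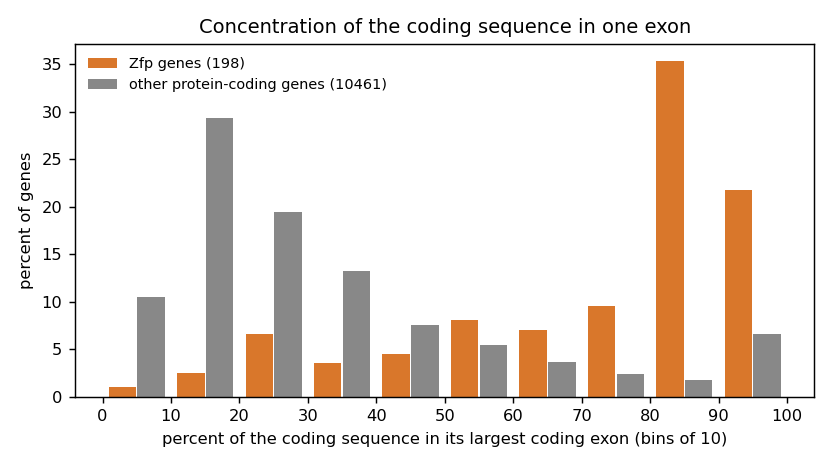
Percent of genes (y axis) by the share of the coding sequence that lies in its largest coding exon (x axis, bins of 10 percent), for the 198 Zfp genes and 10461 other protein-coding genes. Zfp genes pile up in the last bins, with 35.4% at 80 to 90 percent and 21.7% at 90 to 100 percent, against 1.77% and 6.65% of the others.

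Read models of Zfp genes held at least 90% of the reference coding sequence for 74.7% and 74.5% of reads, close to the 74.1% and 72.2% of other protein-coding genes. Among genes with 10 to 99 reads the shares were 71.0% and 70.5% against 67.1% and 63.9%. The share was 85.9% and 85.2% in members whose coding sequence is under 1000 nt (80.1% and 79.3% in other genes). Zfp706 alone had 423 of 1051 and 356 of 876 reads there, with 98.2% of its reads on such models. At 1000 to 1499 nt the share was 83.2% and 83.5% (77.8% and 76.1%). Zfp365 had 439 and 516 of the 1153 reads per library there, with 89.7% of its reads on such models. At 1500 to 1999 nt the share was 71.3% and 70.0% (73.4% and 71.0%), and 71.2% and 78.1% at 2000 to 2999 nt (65.0% and 63.1%). In the 17 members of 3000 nt or more it was 21.6% and 22.6%, against 34.6% and 34.6% in other genes of that length. Zfp106 had 69 of 278 and 92 of 318 reads there, with 9.32% of its reads on such models. No length class was recomputed without its leading gene. Of the 187 members with 2 or more fingers, 76.6% and 74.8% of reads were on models that held every finger. On single-exon models that share was 29.6% and 30.6%, and on incomplete splice matches 53.0% and 53.9%. Incomplete splice matches of Zfp genes were mostly 3′ parts, with 70.8% and 70.1% of their reads on suffix models and 12.6% and 11.2% on prefix models. Single-exon models took 617 and 593 reads. Of these, 60.1% and 60.2% were on models that covered a coding base, and 5.51% and 6.75% on models within an intron.

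In the 84 KRAB members the domain and the fingers were most often on the same read model. Models with both held 73.0% of 1011 reads in replicate 1 (95% Wilson interval 70.2 to 75.6) and 72.3% of 922 in replicate 2 (69.4 to 75.1). Fingers without KRAB took 6.53% and 4.99%. KRAB without any finger took 7.72% and 8.13%, part of the fingers 4.15% and 4.12%, and neither part 8.61% and 10.4%. The libraries' intervals overlapped for each state. Of the 84 genes, 71 had at least 50% of their reads with both parts, 7 had all of them, and Zfp931, Zfp973 and Zfp965 had none.

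**Figure D4:**
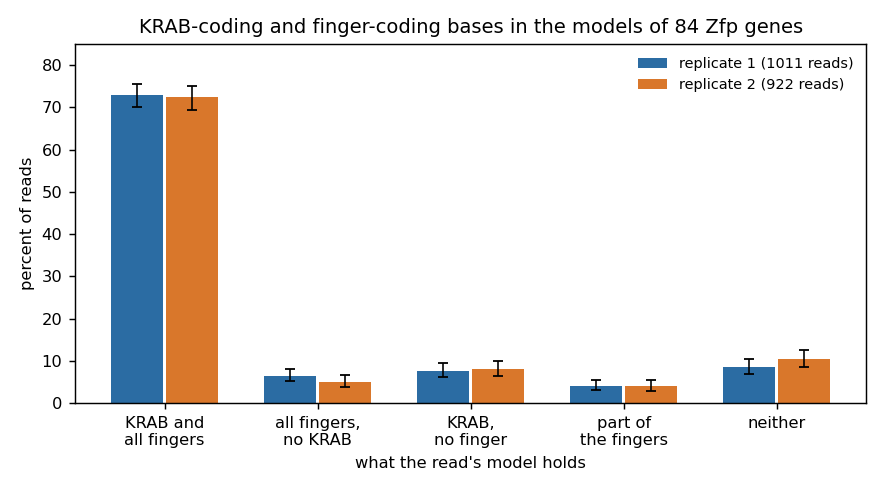
Percent of reads (y axis) of the 84 KRAB Zfp genes by what the read's model holds (x axis), in replicate 1 (1011 reads) and replicate 2 (922 reads); bars are shares and whiskers 95% Wilson intervals. Models with KRAB and all fingers hold 73.0% and 72.3%, and each other state is at or under 10.4%.

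A few genes held most of the finger-less forms. KRAB without fingers had 153 reads in 32 genes, of which 83 came from Zfp931, Zfp970, Zfp950 and Zfp971. All 39 reads of Zfp931 were of this kind, led by the annotated 3-exon transcript Zfp931-201 with 19 and 18 reads. In Zfp970 they were 18 of 30, in Zfp950 16 of 39 and in Zfp971 10 of 14. Zfp970, Zfp973 and Zfp965 share at least 50% of their 31-base words with another annotated Zfp gene, as do Zfp934, Zfp273 and Zfp975, so reads of these 6 could be split among copies and their values are uncertain. The reverse form, fingers without KRAB, was found in 43 genes, with 10 of 26 reads in Zfp983, 9 of 40 in Zfp1 and 8 of 24 in Zfp790. These counts were chosen for mention after their values were seen.

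The exon with the KRAB A-box was 127 nt long in 80 of the 84 genes. That length leaves a remainder of 1 over a multiple of 3, so joining its neighbours without it shifts the reading frame. In reads that spanned the exon, 840 and 729, it was included with its annotated ends in 89.9% and 89.0%, and skipped in 22 and 10 reads (2.62% and 1.37%). Another boundary was used in 3.45% and 4.25%, and a longer exon covered it in 4.05% and 5.35%. Zfp386 gave 12 and 16 of the other-boundary reads, all of its spanning reads, and without it the mean share fell from 3.85% to 2.08%. Zfp983 held 10 of these skipping reads among its 23 spanning reads (43.5%): 8 skipped the exon and 4 included it in replicate 1, and 2 skipped and 9 included it in replicate 2. Its skipping models are all unannotated and cover all finger-coding bases, and their reading frame was not examined. Without Zfp983, 1.40% of spanning reads skipped the exon. Its exon on mm10, the plus strand of chr17:21658913-21659039, is shown with the A-box stretch in capitals, which a skipping read lacks.
Zfp983: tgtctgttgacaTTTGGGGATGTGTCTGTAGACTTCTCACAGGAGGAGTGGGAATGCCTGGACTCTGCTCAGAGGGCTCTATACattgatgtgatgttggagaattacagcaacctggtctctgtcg

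Unannotated splice sites were frequent in KRAB members. Models with such a site took 14.3% (95% Wilson interval 12.3 to 16.6) and 15.8% (13.6 to 18.3) of their reads, against 6.85% (5.84 to 8.02) and 6.73% (5.68 to 7.95) in the 105 members without KRAB that had 10 to 99 reads. Reads with a new site occurred in 65 of 84 KRAB genes, in 42 of them in both libraries. The median share per gene was 10.1%, against 5.88% in those 105 members and 5.70% in all 114 members without KRAB. The intervals cover counting error only. In KRAB members 51.7% and 52.7% of the reads with a new site had it in the first intron. This compares with 44.6% and 42.2% in all 114 members without KRAB. In other protein-coding genes with 10 to 99 reads it was 37.4% and 36.4%. These groups differ in exon number, with medians of 4, 5 and 10 exons, and its part in the first-intron share was not tested. The new site was an acceptor in 76.6% and 77.4% in KRAB members, against 57.5% and 63.0% in the 114 and 61.7% and 62.5% in the other genes. A read can have both a new donor and a new acceptor.

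The same new positions recurred at the leading genes. Zfp944 had 20 such reads of 34 (13 in replicate 1, 7 in replicate 2) and Zfp869 had 19 of 33 (11 and 8). In Zfp869 an acceptor at chr8:69710984 took 11 and 8 reads. An acceptor of Zfp944 at chr17:22358915 had 8 and 5, and one of Zfp777 at chr6:48047686 had 3 and 9. A 6-exon unannotated model of Zfp944 had 6 and 5 reads beside 2 and 7 on Zfp944-201. Zfp941 had 11 such reads of 40, Zfp983 11 of 26 and Zfp386 10 of 34. Across all members there were 645 unannotated sites, 115 of them read in both libraries and 24 with 5 or more reads. Of 1164 unannotated spliced chains, 264 were in both libraries and held 55.1% of the reads on such chains, while 795 had a single read. Of 372 annotated transcripts read, 259 were in both libraries and held 96.7% of annotated reads.

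Members were spread over the genome with the most on chromosome 7, where 54 of 89 annotated Zfp genes were members, followed by chromosome 17 with 22 of 41 and chromosome 8 with 16 of 24. On chromosome 4 it was 5 of 30 and on chromosome 13 9 of 31. Runs of neighbouring Zfp genes held from none to all of their genes as members. On chromosome 6 the run from Zfp786 to Zfp746 had 6 of 7 genes as members, with 8 to 68 reads each, and all 5 genes from Zfp560 to Zfp846 on chromosome 9 were members. On chromosome 7 the runs from Zfp84 to Zfp82 and from Zfp180 to Zfp94 had 8 of 11 and 6 of 10. The chromosome 17 runs from Zfp760 to Zfp994 and from Zfp677 to Zfp983 had 5 of 8 and 3 of 7, and the chromosome 13 run from Zfp738 to Zfp273 had 1 of 5. The chromosome 4 runs from Zfp980 to Zfp993, Zfp985 to Zfp933 and Zfp991 to Zfp982 had no member among 7, 5 and 4 genes, with 16, 3 and 1 reads in all. Genes with a Zfp neighbour were members in 95 of 185 cases (51.4%) and those without in 103 of 180 (57.2%), while KRAB was encoded by 74.1% and 31.7% of them.

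**Figure D5:**
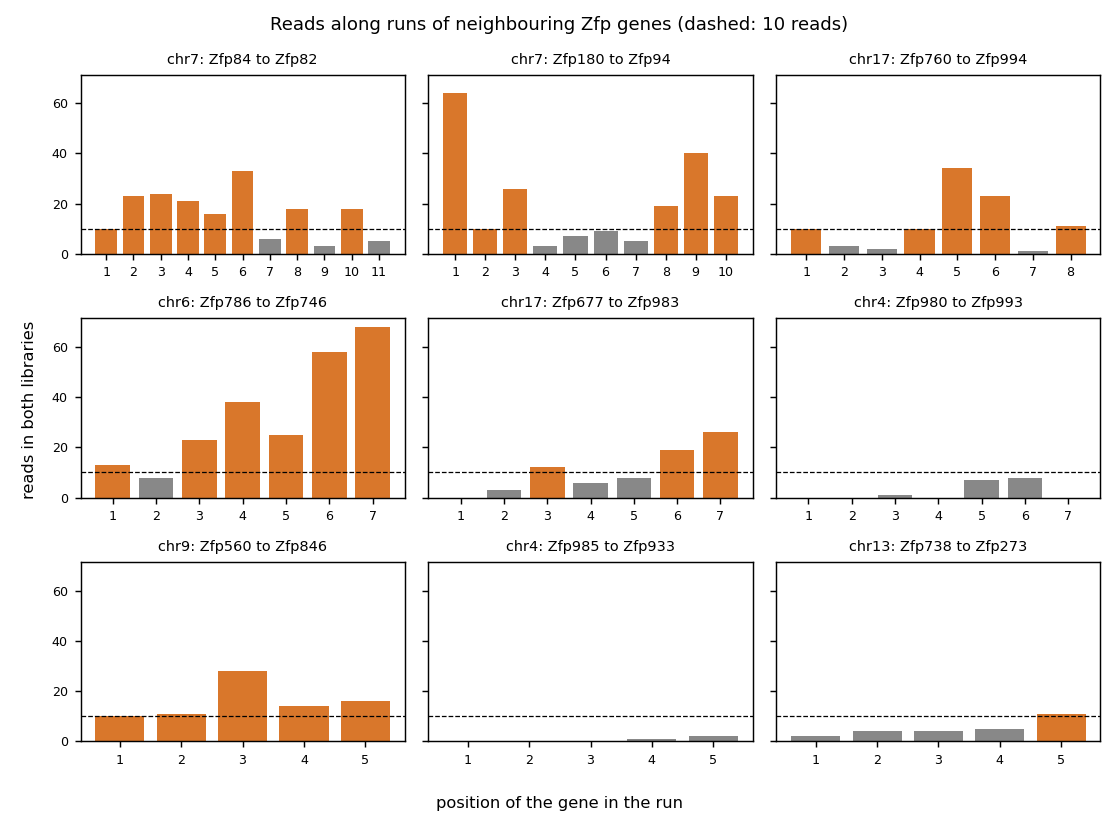
Reads in both libraries (y axis) of each gene along the 9 runs of 5 or more neighbouring Zfp genes (x axis, position in the run); the dashed line marks 10 reads. The chromosome 4 runs stay below the line at every gene, while all 5 genes of the chromosome 9 run reach it.

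Overlap with other genes limits single values. Another annotated gene with 10 or more reads overlapped 27 members, on the same strand for 4 and on the opposite strand for 25. The hybrid's C57BL/6J and CAST/EiJ alleles were not separated in the deposited counts, so each value is the sum over both.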

How the data were processed

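The deposited files of each library are whole read counts for every transcript model and a model annotation with exon positions and lengths. Per the deposited notes, these derive from alignments to mm10 with GENCODE M21, and the annotation's source column names TALON. Aligner, platform, filters and read orientation: not given in the sources used here. Spike-in models, 1.56% and 1.32% of reads, were left out. Gene counts sum all models given to an annotated gene. For major transcripts and numbers of models, the unannotated single-exon models of a gene were pooled as 1. Libraries were compared by exact binomial tests on gene reads (20 or more in total) and Fisher's exact tests on shares (20 or more in each), with Benjamini-Hochberg adjustment over all genes and a threshold of 0.05, and Wilson intervals at 95%. The tests were checked on simulated counts.

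Python 3.11.15, pandas 2.3.3, SciPy 1.17.1 and matplotlib 3.10.9 were used, with edgeR 4.0.16 and DESeq2 1.42.0 in R 4.3.3 for scaling alternatives only. Protein features came from translating the longest GENCODE M21 coding sequence of each gene, in place of the RefSeq proteins first planned. A C2H2 finger was C, 2 to 4 residues, C, 12 residues, H, 3 to 5 residues, H. The KRAB pattern was adjusted on annotated proteins, not on reads. A part was held by a model when the model's exons covered at least 90% of its bases. Ends of single reads were not examined, so these shares describe the models to which reads were assigned.

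The named genes are the 15 with the most reads, any call, the extremes of annotated share at 50 or more reads, of unannotated major models, of model number and of finger number, up to 4 per role list, and the members at the threshold. Up to 8 corepressor genes were eligible to be named, and some are not reported here. Genes named by their KRAB, splice-site or chromosome values are exceptions, chosen after their values were seen. Members and lists were chosen with earlier results of these data known.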

Additional observations from a re-analysis of the deposited data

Results flagged for a closer look

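Reads of antisense loci, which the counts above leave out, lay opposite 131 of the 198 Zfp genes. They numbered 547 in replicate 1 and 1175 in replicate 2, against 4511 and 4193 reads on the Zfp genes themselves, and 43 members had 10 or more. Of all reads, 774629 of 871524 in replicate 1 and 679147 of 839150 in replicate 2 fell on annotated genes. Reads outside annotated genes were thus more numerous in replicate 2 over the whole library. Antisense counts over all genes were not computed, so these values are not shown to be particular to Zfp genes. The most were 238 opposite Zfp207 (69 and 169), 141 opposite Zfp445 (42 and 99) and 118 opposite Zfp532 (32 and 86), each above the limit of 3 reads that a count of 0 allows. They outnumbered the genes' own reads, which were 45 and 48 in Zfp207, 18 and 27 in Zfp445 and 17 and 22 in Zfp532. Only 56 antisense reads had more than 1 exon. The orientation of the reads is not stated, so antisense transcripts and reads placed on the wrong strand cannot be told apart, and the cause was not tested.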

How the results depend on the processing

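No paired analysis was possible because there is only 1 group. Over all genes, the 182 gene-read calls were 55 with annotated transcripts only, 78 with multi-exon models only and 98 without genomic and incomplete-splice-match models. Zfp365 was the single Zfp call in all 7 alternatives (log2 difference 0.39 to 0.54, adjusted p 5.55e-05 to 0.00390). The 10 major-transcript calls were 1 with annotated transcripts only and 114 when chain and class were matched together, with no Zfp call in either. The 9 annotated-share calls were 251, with 2 Zfp calls (Zfp365 and Zfp281), when incomplete splice matches counted as annotated, and 103 without genomic models. The 17 single-exon calls were 236, with 1 Zfp call (Zfp365), without genomic models. The cause was not tested. The single-exon 3′ models of Zfp365 differed between the libraries in both class and length.

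As the median per gene, the class shares were 57.1% annotated (60.5% pooled), 6.06% incomplete (11.0%), 5.26% new combination (10.2%), 7.61% new site (7.25%), 7.28% genomic (11.1%) and 10% single-exon (13.9%). Without Zfp365 and Zfp706, chosen after seeing the data, they were 52.9%, 12.5%, 12.6%, 8.81%, 13.1% and 16.1%. At 20 or more reads, new combinations were 10.5%, new sites 6.68%, genomic 10.4% and single-exon 13.1%. With letters allowed after the number, new combinations were 10.3%, genomic 11.7% and single-exon 14.6%. Reads on models holding the coding sequence were 74.6%, and 82.7% at a 50% threshold, also chosen later. Counting 190 genes once, each by its major annotated transcript, gave 87.4% of genes, with weighting and annotation both changed. The other-boundary share of the KRAB exon (3.85%) was 2.08% without Zfp386, chosen after seeing the data. Leaving out either library moved no class share by more than 1 percentage point.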
